A study of Mus musculus with 12 samples.

Results

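The 9 genes described here encode regulators of apoptosis in mouse liver: the restraining BCL2 family members Bcl2 and Bcl2l1, the pore-forming effectors Bax and Bak1, the BH3-only activators Bcl2l11, Bbc3 and Bid, the initiator protease Casp8 and the death receptor Fas. They were chosen by gene symbol from count tables that list 50559 genes, and all 9 symbols were found. The rule uses their names alone, and the names were picked with earlier results of these data known. All 9 passed the filter on low counts (a mean of at least 10 reads over the 6 libraries of a comparison) in each of the 4 comparisons made.

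The livers came from C57BL/6N mice in 4 groups of 3 libraries, 12 in all. The NCD group ate normal chow and the HFD group a high-fat diet with 60% of its energy from fat, both for 12 weeks. The HFD+C1 and HFD+C2 groups ate the same high-fat diet and were given compound C1 or compound C2 daily at 5 mg/kg, injected into the peritoneal cavity, for 12 weeks. The compounds are known here by these code names, the title of the series describes them as inhibitors of CYP4A enzymes, and the labels state no vehicle injection, sex or age. The titles call the libraries biological replicates, so the p-values below measure the spread between 3 livers per group as far as the labels say.

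Apoptosis dismantles a cell through caspases, proteases that are made as inactive precursors. In the mitochondrial route, BH3-only proteins neutralise BCL2 and BCL-XL and activate BAX and BAK, which open the outer mitochondrial membrane. In the receptor route, FAS recruits and activates caspase-8, and in hepatocytes caspase-8 also cleaves BID, whose fragment carries the signal on to the mitochondria, so that FAS-driven death of hepatocytes draws on both routes. Hepatocytes carry FAS on their surface and rely on BCL-XL for survival, and their apoptosis is a known feature of fatty liver disease. Much of the pathway is controlled at the protein level, by cleavage, binding and turnover, which RNA does not measure.

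The shallowest library, NCD replicate 2, had 4281210 reads counted in genes, and the deepest, HFD replicate 1, had 32124248. Between 27.3% and 58.1% of the reads of a library were assigned to no gene, most in NCD replicate 1 and next in HFD+C2 replicate 1 (47.1%). Those 2 libraries stood apart from their groups: over 10133 genes NCD replicate 1 correlated with the other NCD libraries at r = 0.921 and 0.944 against 0.979 between the remaining pair, and HFD+C2 replicate 1 at 0.954 and 0.953 against 0.988. The hepatocyte markers Alb, Ttr, Apoa1, Hnf4a and Serpina1c were detected in every library, with a summed level of 32100, 73200 and 77900 CPM in NCD, 88800 to 106000 in HFD, 100000 to 110000 with C1 and 78300 to 148000 with C2, so that the sums of NCD and HFD, most of which were Alb, did not overlap (CPM, counts scaled to a library's total in genes, here adjusted with TMM factors computed over the 12 libraries). The summed level of 6 Kupffer cell and macrophage markers was 87.9 to 104 CPM on chow, 96.1 to 129 under the high-fat diet, 160 to 203 with C1 and 125 to 252 with C2, with all 6 markers detected in each library. In bulk liver RNA, fewer cells of a type and less RNA per cell cannot be told apart.

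None of the 9 genes passed the test in any comparison (edgeR's quasi-likelihood test, Benjamini-Hochberg adjusted p under 0.05 over all genes tested). For HFD against NCD the count was 0 of 9, where 6.03% of the 13864 genes tested were called, 2.59% higher and 3.44% lower. For HFD+C1 against HFD it was 0 of 9, with 0.0524% of all genes called, and for HFD+C2 against HFD 0 of 9, with 0.0222%. For HFD+C2 against HFD+C1 it was 0 of 9, with 0% of all genes called. The DESeq2 Wald test also called 0 of the 9 in each comparison, where it called 16.6%, 0.576%, 0.259% and 0.0227% of all genes, in the same order.

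A looser reading gave 1 or 2 of the 9 genes per comparison, counts that are no result about these genes beside the shares over all genes. At an unadjusted p under 0.05 stood Casp8 for HFD against NCD (28.9% of all genes), Bbc3 for HFD+C1 against HFD (7.75%), and Bcl2 for both HFD+C2 against HFD (6.89%) and HFD+C2 against HFD+C1 (4.6%). Groups that did not overlap were found for Casp8 and Bcl2l1 between HFD and NCD, where 37.1% of all genes had this property. For HFD+C1 against HFD they were found for Bbc3 and Fas (12.4% of all genes), for HFD+C2 against HFD for Bcl2 and Fas (13.6%), and for HFD+C2 against HFD+C1 for Bcl2 (12% of all genes). The 3 comparisons that include HFD share its 3 libraries, so their values are not independent of each other.

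**Figure D1:**
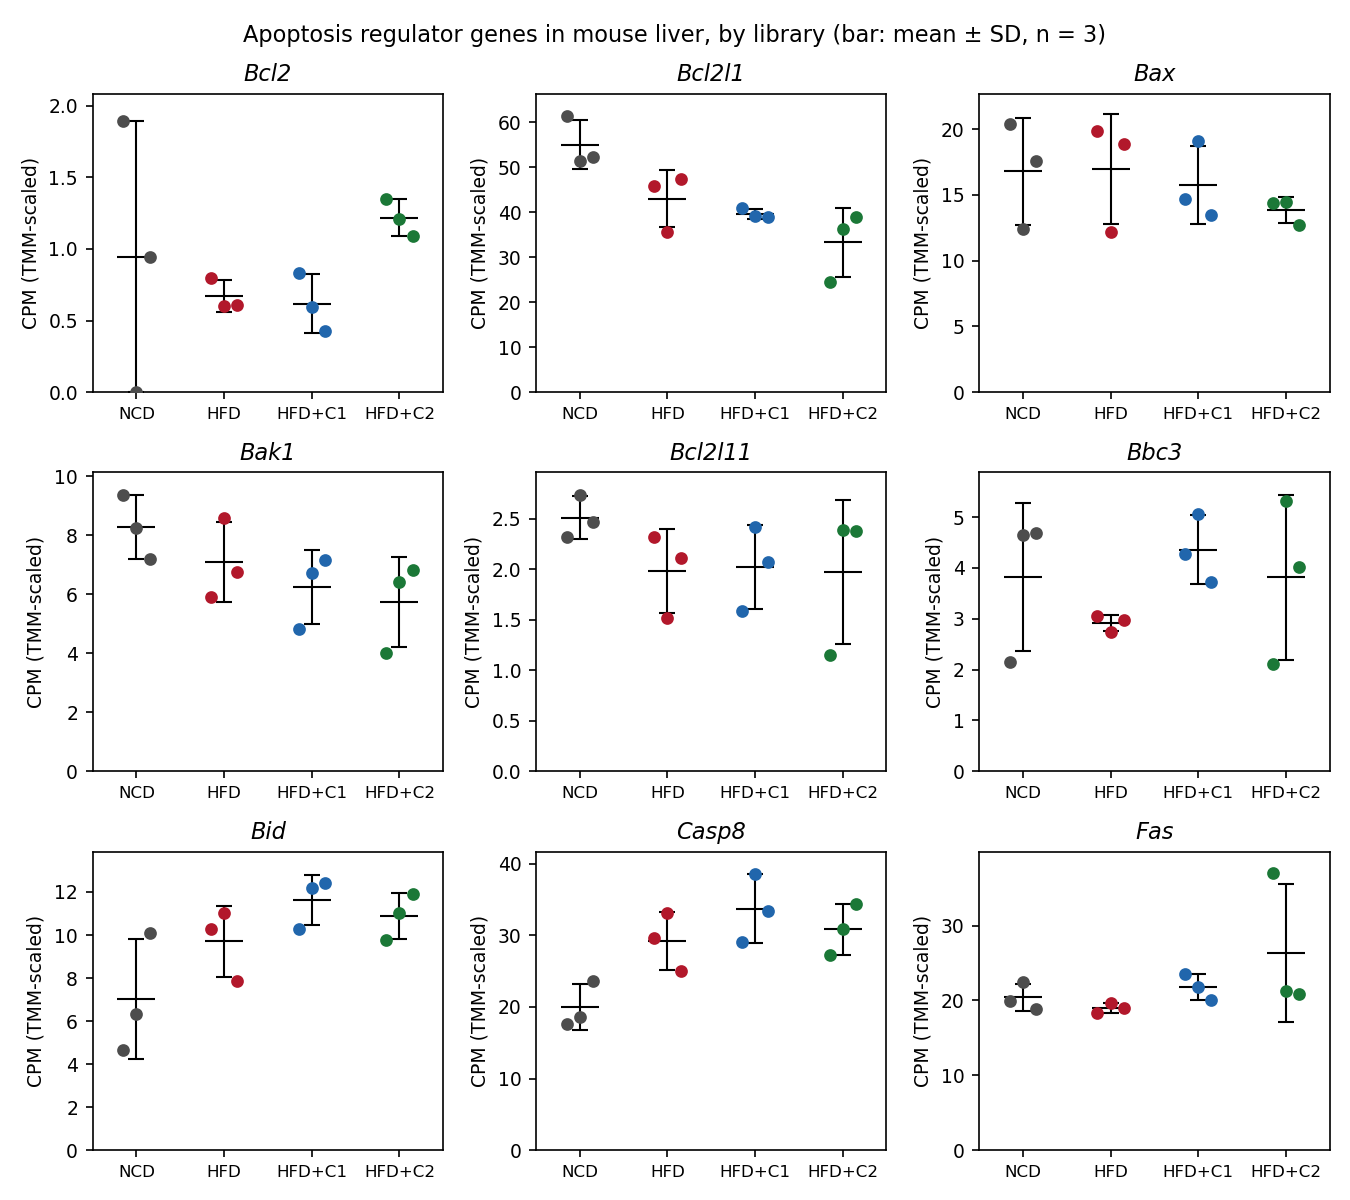
Level of each of the 9 genes in the 12 libraries, in CPM scaled with TMM factors on axes that start at 0; each point is a library, and the bars give the mean and SD of a group (n = 3). Casp8 is higher in each HFD library (25 to 33.1) than in each NCD library (17.6 to 23.6), Bcl2 is higher in each HFD+C2 library (1.09 to 1.35) than in each HFD library (0.602 to 0.797), and Fas stands at 37 in HFD+C2 replicate 1.

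Bcl2l1 encodes BCL-XL, a survival factor that helps to hold BAX and BAK in check in hepatocytes (GRCm38 chr2:152780668-152831728, minus strand). Its group mean in CPM was the highest of the 9 genes in each group, with 61.4, 51.5 and 52.2 CPM in the NCD libraries and 45.8, 35.7 and 47.4 CPM in HFD. The compound groups held 40.9, 39.2 and 38.9 CPM (HFD+C1) and 24.6, 36.3 and 39 CPM (HFD+C2). Each NCD library lay above each HFD library, and the order of the group means was NCD (55 ± 5.54), HFD (43 ± 6.35), HFD+C1 (39.7 ± 1.09) and HFD+C2 (33.3 ± 7.65; SD, n = 3 in each). Neighbours below NCD in that order overlapped. The fitted log2 change of Bcl2l1 for HFD against NCD was -0.33 (SE 0.18, 95% interval -0.75 to 0.08, edgeR adjusted p = 0.255). For HFD+C2 against HFD it was -0.38 (interval -0.84 to 0.09, edgeR adjusted p = 0.696), and -0.20 without HFD+C2 replicate 1, the library with the lowest value.

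Bcl2, the founding survival gene of the family (chr1:106538178-106714274, minus strand), was close to the limit of detection. Its read counts were 22, 0 and 23 in NCD, 24, 17 and 15 in HFD, 22, 13 and 8 with C1 and 27, 31 and 26 with C2. The 0 fell in the shallowest library, NCD replicate 2, where a floor of 3 counts allows a level of up to 0.633 CPM, and that is not below the HFD libraries at 0.602 and 0.61 CPM. Scaled, the HFD+C2 libraries stood at 1.35, 1.21 and 1.09 CPM, above all 3 HFD libraries (0.797, 0.602 and 0.61) and all 3 HFD+C1 libraries (0.832, 0.594 and 0.425). This is the one member whose HFD+C2 values cleared both other high-fat groups. The fitted log2 difference of Bcl2 was 0.84 for HFD+C2 against HFD (SE 0.32, interval 0.13 to 1.55, unadjusted p = 0.0247, edgeR adjusted p = 0.695). It was 0.95 for HFD+C2 against HFD+C1 (SE 0.36, interval 0.14 to 1.77, unadjusted p = 0.0269, edgeR adjusted p = 0.841).

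Counting error was large for Bcl2 at this depth. The exact Poisson 95% interval of its level ran from 0.711 to 1.59 CPM in the lowest HFD+C2 library and from 0.51 to 1.19 CPM in the highest HFD library, and such intervals cover counting error only. Across the diet comparison the log2 change was -0.58 with an interval from -2.43 to 1.28 (edgeR adjusted p = 0.666), and -0.05 without NCD replicate 1. The NCD values themselves spanned 0 to 1.89 CPM. NCD replicate 1, with the highest Bcl2, also had the highest summed level of 6 T cell markers (9.28 CPM, against 2.44 to 5.14 in the other 11 libraries), and between HFD (2.44 to 3.68) and HFD+C2 (2.7 to 4.31) that sum overlapped. Of its members, Cd3g was higher in each HFD+C2 library than in each HFD library (0.567 ± 0.218 CPM in HFD and 1.15 ± 0.0852 in HFD+C2, SD, n = 3, edgeR adjusted p = 0.695), and so were Adgre1 of the macrophage list and Lyve1 and Pecam1 of the endothelial list, none of them called. The other tested markers of these lists overlapped. The part of these cells in the Bcl2 level was not tested. The exons of Bcl2 share 558 bases with D630008O14Rik on the other strand, and since the use of strand in counting is not given in the sources used here, reads from that stretch cannot be told apart.

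Bax, an effector that forms pores in the outer mitochondrial membrane (chr7:45461697-45466898, minus strand), had 20.4, 12.4 and 17.6 CPM in NCD and 19.9, 12.2 and 18.9 CPM in HFD. The 2 groups covered the same range, and the fitted log2 change was 0.02 (SE 0.25, interval -0.56 to 0.60, edgeR adjusted p = 0.962). The sign of this difference changed with the scaling: with plain library totals it was -0.21, where the median of all genes moved by -0.22. In HFD+C1 the values were 14.7, 19.1 and 13.5 CPM, and in HFD+C2 14.4, 14.5 and 12.7 CPM, all within the HFD range. The log2 change was -0.11 for HFD+C1 against HFD (interval -0.51 to 0.30) and -0.30 for HFD+C2 against HFD (interval -0.76 to 0.16, edgeR adjusted p = 0.718). Bax shares 192 exonic bases with Gm45808 on its own strand, so part of its reads may have been set aside as ambiguous.

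Bak1, the second effector (chr17:27019810-27029009, minus strand), was the lower of the pair in each library. Its levels were 9.37, 8.23 and 7.19 CPM in NCD, 5.91, 8.57 and 6.75 in HFD, 4.81, 6.72 and 7.17 with C1 and 4, 6.41 and 6.82 with C2. Group means ran in the order NCD, HFD, HFD+C1, HFD+C2, from 8.26 ± 1.09 down to 5.74 ± 1.52 CPM (SD, n = 3), and each neighbouring pair in that order overlapped. The log2 change was -0.20 for HFD against NCD (SE 0.23, edgeR adjusted p = 0.595) and -0.30 for HFD+C2 against HFD (SE 0.25, edgeR adjusted p = 0.748). The latter was -0.10 without HFD+C2 replicate 1. Bak1 shares 256 exonic bases with Ggnbp1 on the other strand.

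The balance of Bax to Bcl2l1 can be read within a library, where scaling cancels. In read counts, Bax per Bcl2l1 was 0.332, 0.242 and 0.337 in NCD and 0.433, 0.343 and 0.398 in HFD. Each HFD library was above each NCD library, by as little as 0.343 against 0.337. In HFD+C1 the ratio was 0.359, 0.488 and 0.347, and in HFD+C2 0.587, 0.401 and 0.326. Both compound groups overlapped HFD, and the highest ratio was that of HFD+C2 replicate 1, which had the lowest Bcl2l1. Group means were 0.304 ± 0.0536 (NCD), 0.391 ± 0.0454 (HFD), 0.398 ± 0.0781 (HFD+C1) and 0.438 ± 0.135 (HFD+C2; SD, n = 3), given here as a description. Bcl2l1 alone also separated NCD from HFD, a property of 37.1% of all genes tested. Bak1 per Bcl2l1, the ratio of the second effector, overlapped between the diets (0.153, 0.16 and 0.138 in NCD, 0.129, 0.24 and 0.142 in HFD).

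Bax is a textbook target of the transcription factor p53, as are Bbc3, Fas, Cdkn1a and Ccng1, so the upstream sequence of Bax is shown with those of Cdkn1a and Ccng1, the p53 targets of the pathway list that rose under the diet (values further on). The windows are the 250 bases before the RefSeq transcript start (RefSeq, GRCm38.p6), read 5′ to 3′ on the strand of the gene, with matches to the 10-base p53 half-site in capitals. They lie at chr7:45466899-45467148 (Bax, minus strand), chr17:29090729-29090978 (Cdkn1a, plus strand) and chr11:40755287-40755536 (Ccng1, minus strand).
Bax: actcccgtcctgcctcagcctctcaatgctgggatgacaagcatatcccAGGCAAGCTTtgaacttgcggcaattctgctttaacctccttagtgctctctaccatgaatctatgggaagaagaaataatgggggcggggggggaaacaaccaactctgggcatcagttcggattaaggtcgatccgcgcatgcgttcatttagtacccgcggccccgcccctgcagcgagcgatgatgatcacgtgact
Cdkn1a: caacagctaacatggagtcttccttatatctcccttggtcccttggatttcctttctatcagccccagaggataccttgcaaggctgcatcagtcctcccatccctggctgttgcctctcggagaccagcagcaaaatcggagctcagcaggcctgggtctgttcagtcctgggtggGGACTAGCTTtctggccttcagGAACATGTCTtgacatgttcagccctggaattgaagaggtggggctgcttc
Ccng1: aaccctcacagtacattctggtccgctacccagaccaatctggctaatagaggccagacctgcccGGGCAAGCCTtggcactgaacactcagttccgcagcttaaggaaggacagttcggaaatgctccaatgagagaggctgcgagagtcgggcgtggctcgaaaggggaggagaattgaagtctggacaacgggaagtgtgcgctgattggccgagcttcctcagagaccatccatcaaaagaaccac
The Bax match began 201 bases before the start and the Ccng1 match 185 bases before it, while the Cdkn1a window shown held matches at 73 and 51 bases. A second Cdkn1a start (window at chr17:29093519-29093768) held 0 matches and 2 GC boxes and is not printed. Such a match is common: 7.13% of 32851 mouse windows of this length held one, and among the 14 windows of the 9 genes the Bax window was the only one that did. The matches describe letters and are not binding sites shown by these data.

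The same windows differed widely in base composition. Their GC content ran from 39.6% (Casp8) to 81.6% (a Bbc3 start), with a median of 52.4% over all windows. The GC box GGGCGG, searched on both strands, stood in 9 of the 14 windows and in at least 1 window of 6 of the 9 genes, against 32.7% of all windows. The windows are not independent, since Bbc3 and Bcl2l11 each give more than 1 with a box and some Bbc3 windows overlap. The count is therefore no test against that share. The box was found upstream of Bax, Bcl2, Bcl2l11, Bbc3, Bid and Fas and not in the windows of Bak1, Bcl2l1 or Casp8. This says only that these letters were not in those stretches.

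Among the BH3-only genes, Bcl2l11 encodes BIM, which binds all the survival proteins of the family (chr2:128126038-128162547, plus strand). It had 2.32, 2.74 and 2.47 CPM in NCD, 2.32, 1.52 and 2.11 in HFD, 1.59, 2.42 and 2.07 with C1 and 1.15, 2.39 and 2.38 with C2. The 4 groups overlapped, with means between 1.97 and 2.51 CPM. The log2 change was -0.30 for HFD against NCD (interval -1.07 to 0.47, edgeR adjusted p = 0.576). It was 0.02 for HFD+C1 against HFD (interval -0.57 to 0.61) and -0.01 for HFD+C2 against HFD (interval -0.75 to 0.74). In folds, these intervals ran from 0.676 to 1.52 with C1 and from 0.593 to 1.67 with C2. Without HFD+C2 replicate 1 the change with C2 was 0.26.

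Bbc3 encodes PUMA, a BH3-only protein induced by p53 and by stress of the endoplasmic reticulum (chr7:16308393-16318205, plus strand). In HFD it stood at 3.05, 2.73 and 2.97 CPM, a narrow group, and in HFD+C1 at 4.28, 5.07 and 3.72 CPM. Each HFD+C1 library exceeded each HFD library. The log2 change for HFD+C1 against HFD was 0.58, or 1.49-fold (SE 0.20, interval 0.15 to 1.01, unadjusted p = 0.0126, edgeR adjusted p = 0.461). It lay between 0.46 and 0.68 when each library was left out in turn. The summed Kupffer cell and macrophage markers separated the same groups (160 to 203 CPM in HFD+C1 against 96.1 to 129 in HFD), with 4 of the 6, Clec4f, Adgre1, Vsig4 and Csf1r, higher in each HFD+C1 library and none called. Its part in the levels of Bbc3, Casp8 and Fas with C1 was not tested.

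The other groups of Bbc3 were far wider. NCD had 2.15, 4.64 and 4.69 CPM and HFD+C2 2.1, 5.32 and 4.02 CPM, and in each of these groups the low library was the one that stood apart from its group (NCD replicate 1 and HFD+C2 replicate 1). HFD+C2 overlapped HFD, with a log2 change of 0.39 (interval -0.32 to 1.10, edgeR adjusted p = 0.748) that became 0.67 without HFD+C2 replicate 1. The diet change was -0.36 (interval -1.15 to 0.43, edgeR adjusted p = 0.516), and -0.67 without NCD replicate 1. The difference between HFD+C2 and HFD+C1 was -0.18 (interval -0.91 to 0.54) and took the other sign, 0.10, without HFD+C2 replicate 1.

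Casp8 encodes the initiator caspase of the receptor route (chr1:58795374-58847503, plus strand). It had 17.6, 18.6 and 23.6 CPM in NCD and 29.6, 33.1 and 25 CPM in HFD, where each HFD library was above each NCD library. The group means were 19.9 ± 3.23 and 29.2 ± 4.08 CPM (SD, n = 3), a difference of 0.57 on the log2 scale or 1.48-fold (SE 0.20, interval 0.12 to 1.01, unadjusted p = 0.0186). It did not pass the adjusted threshold (edgeR adjusted p = 0.107), and leaving out any single library kept it between 0.45 and 0.72. Without a filter on low counts Casp8 was called (log2 change 0.74, edgeR adjusted p = 0.032, against a range of 0.0603 to 0.2995 over the other alternatives), and it was the only member called under any alternative. In that fit the median of all genes moved by 0.18.

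With the compounds Casp8 stayed in the range of the high-fat diet or above it. HFD+C1 had 29, 38.6 and 33.4 CPM and HFD+C2 27.2, 30.8 and 34.4 CPM, both overlapping HFD. The log2 change was 0.20 for HFD+C1 against HFD (interval -0.10 to 0.50, edgeR adjusted p = 0.811) and 0.07 for HFD+C2 against HFD (interval -0.31 to 0.44, edgeR adjusted p = 0.925). The genes whose levels followed Casp8 most closely across the 12 libraries were Spi1, a transcription factor of myeloid cells (Pearson r = 0.966), and Fn1, fibronectin (r = 0.95). The sum of Kupffer cell and macrophage markers overlapped between NCD (87.9 to 104 CPM) and HFD (96.1 to 129 CPM), but most of that sum was Clec4f (56.5 and 66.6 CPM on average), and its 6 markers did not move as one. Cd68 (2.61 ± 0.667 CPM in NCD and 5.55 ± 1.57 in HFD, SD, n = 3, edgeR adjusted p = 0.0754) and Vsig4 (6.12 ± 4.04 and 13 ± 4.41 CPM, adjusted p = 0.204) were higher in each HFD library than in each NCD library, as Casp8 was. Adgre1, Marco and Csf1r had lower estimates in HFD and overlapped, and none of the 6 was called. The summed hepatocyte markers were also higher in each HFD library than in each NCD library (88800 to 106000 against 32100 to 77900 CPM), but those markers did not move as one either. Alb, most of the sum (32620 ± 18980 CPM in NCD and 62600 ± 9518 in HFD), and Hnf4a were higher in each HFD library, Serpina1c was lower in each (6450 ± 684 and 4119 ± 333 CPM; SD, n = 3), Ttr and Apoa1 overlapped, and none of the 5 was called. The part of either cell type in the Casp8 level was not tested.

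Bid encodes the BH3-only protein that caspase-8 cleaves to link the receptor to the mitochondria (chr6:120891930-120916853, minus strand). Its levels were 4.64, 6.33 and 10.1 CPM in NCD, 10.3, 11 and 7.85 in HFD, 10.3, 12.2 and 12.4 with C1 and 9.75, 11 and 11.9 with C2. NCD replicates 1 and 2 were below the other 10 libraries, and NCD replicate 3 lay among them. The log2 change for HFD against NCD was 0.46 (SE 0.31, interval -0.23 to 1.16, edgeR adjusted p = 0.342). It rested in part on NCD replicate 1, without which it was 0.17, while without NCD replicate 3 it was 0.88. NCD replicate 1 also had the lowest summed hepatocyte markers, whose part in the Bid level was not tested. For HFD+C1 against HFD it was 0.25 (interval -0.09 to 0.59) and for HFD+C2 against HFD 0.15 (interval -0.26 to 0.57).

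Bid and Casp8, the substrate and its protease, ran in parallel over the 12 libraries. Of the 36 pairs among the 9 genes theirs had the strongest correlation on log2(CPM + 1), with Pearson r = 0.93 (permutation p = 2e-05, 0.00072 adjusted over the 36 pairs) and Spearman rho = 0.951 (permutation p = 1e-05, the smallest that 100000 resamples can give; adjusted 0.00036). After leaving out the 2 libraries farthest from the median of Bid, r was 0.82. Within groups, after subtracting each group mean, r was 0.855, and over the 9 high-fat libraries alone it was 0.916. No other pair passed the adjusted threshold, and the pair was picked as the strongest of the 36. The permutation takes the 12 libraries as exchangeable, though they form 4 groups and include the 2 that stood apart. Its p-values therefore do not set the pair apart from differences between groups or libraries that many genes share. The gene closest to Bid across libraries was Slc10a1, the bile acid importer of hepatocytes (r = 0.964 over 12 libraries), and the next was Tmem9 (r = 0.948). Both were closer to Bid than Casp8 was, and Spi1 (r = 0.966) and Fn1 (r = 0.95) were closer to Casp8 than Bid was. An r of this size is thus not particular to the pair, and its share over all gene pairs was not computed.

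**Figure D2:**
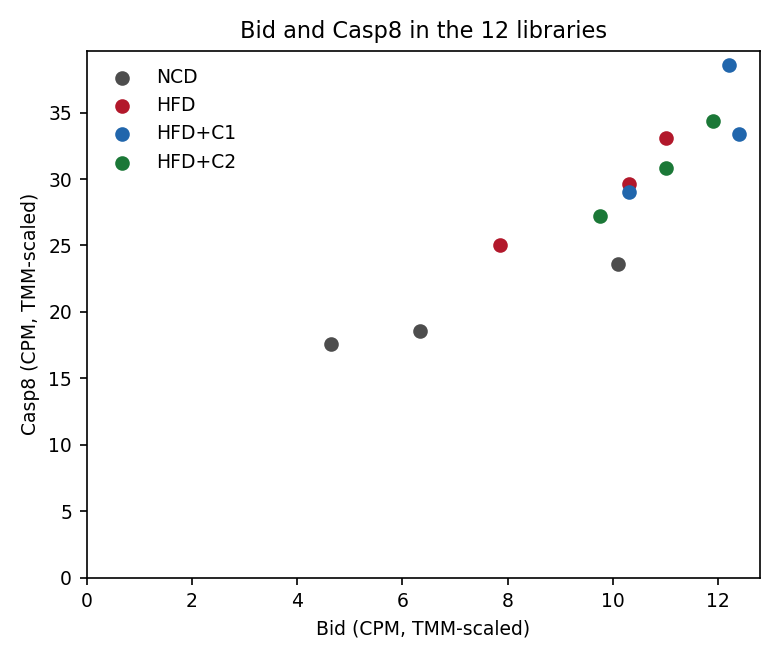
Level of Bid (horizontal axis) against Casp8 (vertical axis) in the 12 libraries, in CPM scaled with TMM factors; each point is a library, coloured by group. The points rise together (Pearson r = 0.93 on the log2 scale), from NCD replicate 1 at 4.64 and 17.6 to HFD+C1 replicate 2 at 12.2 and 38.6.

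Fas encodes the death receptor that starts the extrinsic route (chr19:34290666-34327772, plus strand). It varied little between the diets, with 19.9, 22.4 and 18.9 CPM in NCD and 18.3, 19.7 and 19 CPM in HFD. These groups overlapped, the log2 change was -0.07 (SE 0.17, edgeR adjusted p = 0.801), and its interval ran from -0.45 to 0.31, or from 0.73-fold to 1.24-fold. HFD+C1 had 23.5, 21.8 and 20 CPM, each above each HFD library by a small margin (log2 change 0.20, interval -0.06 to 0.45, edgeR adjusted p = 0.762). In HFD+C2 the values were 37, 21.2 and 20.8 CPM. All 3 exceeded HFD, but 1 library stood far above the others.

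The Fas difference for HFD+C2 against HFD was 0.46 on the log2 scale (SE 0.23, interval -0.05 to 0.97, edgeR adjusted p = 0.696). Without HFD+C2 replicate 1 it was 0.14. Against HFD+C1 it was 0.28 (interval -0.25 to 0.80) and changed sign to -0.05 without that library. The same library had the highest summed Kupffer cell and macrophage markers (252 CPM) and the highest summed neutrophil markers (6.45 CPM, against 0.844 to 2.7 in the other 11), with 2 of the 4 neutrophil markers at 0. It was also the highest of the 12 for the summed endothelial (96.6 CPM, against 60.8 to 88) and stellate cell markers (127 CPM, against 65.9 to 100). Their part in its Fas level was not tested.

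The 2 libraries that stood apart from their groups set most of the extreme values. HFD+C2 replicate 1 had the lowest level of 4 genes among the 12 libraries (Bcl2l1, Bak1, Bcl2l11 and Bbc3) and the highest level of 1, Fas. NCD replicate 1 had the lowest Bid and Casp8 and the highest level of 4 genes (Bax, Bak1, Bcl2 and Bcl2l1). Of the other 10 libraries, NCD replicate 2 was highest for Bcl2l11 (its 0 reads of Bcl2 give no rank at its depth), and none of the rest was the extreme for more than 1 gene. Both libraries also had the largest shares of reads outside genes, and the part of that in their levels was not tested.

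Compared per length of transcript, the 9 genes spanned a wide range of levels. Bax was highest in each group by the union of its exons, with group means from 16 to 19.6 CPM per kb, followed by Bcl2l1 (8.57 to 14.1), Fas (10.6 to 14.7) and Casp8 (6.89 to 11.6), whose ranges overlapped. In HFD+C2 the Fas libraries (11.6 to 20.6) also overlapped those of Bax (14.7 to 16.8), and in NCD the Bcl2l1 libraries did (13.2 to 15.8, against 14.4 to 23.5 for Bax). Bid (3.21 to 5.32), Bak1 (2.41 to 3.46) and Bbc3 (1.61 to 2.4) came next. Bcl2l11 (0.286 to 0.364) and Bcl2 (0.0674 to 0.133 CPM per kb) were lowest in every group. The order at the top depended on the length used: with the longest transcript in place of the exon union, Bcl2l1 was 21.4 CPM per kb in NCD against 19.4 for Bax, and Fas was 17.8 in HFD+C2 against 16 for Bax.

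**Figure D3:**
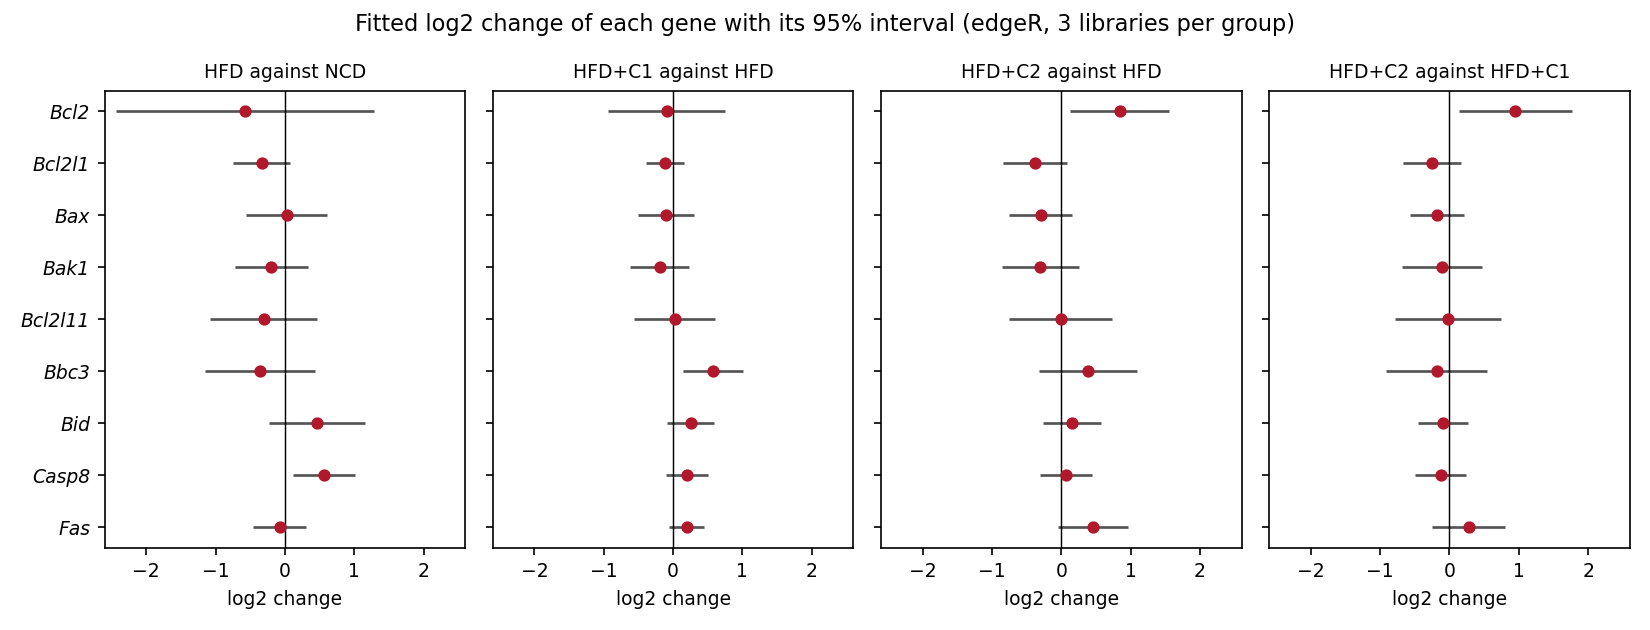
Fitted log2 change of the 9 genes in the 4 comparisons; points are edgeR estimates and lines their 95% intervals, with 3 libraries per group. The intervals that exclude 0 are those of Casp8 (HFD against NCD), Bbc3 (HFD+C1 against HFD) and Bcl2 (HFD+C2 against HFD and against HFD+C1), none of which passed the adjusted threshold.

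The compounds were compared directly at the same dose and time, as 1 pair. Of the 9 genes, Bcl2 was higher with C2 than with C1 in each library, as given above, and did not pass the adjusted threshold. The log2 differences of the other 8 (C2 minus C1) ran from -0.25 for Bcl2l1 (interval -0.67 to 0.17) to 0.28 for Fas. For Bax the difference was -0.18 (interval -0.57 to 0.21), for Casp8 -0.13 (interval -0.49 to 0.24) and for Bid -0.09 (interval -0.46 to 0.27). Differences of that width were not resolved with 3 libraries per group, and the missed threshold does not show that the compounds act alike.

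Beyond the 9, a list of 69 further genes of apoptosis and its upstream control was examined, of which 61 were tested in the diet comparison. There 5 were called (3 higher and 2 lower), against 6.03% of all genes, and 19 had an unadjusted p under 0.05, against 28.9%. The median log2 change was 0.04 over the list and -0.02 over all genes. Calls fell on 3 of 13 genes of p53 and its targets and 1 of 9 upstream factors, among others. No call was made among the survival genes (3 tested), Bok (the 1 effector), the BH3-only genes (5), the death receptors (3) and ligands (1), the adaptors and necroptosis genes (8), the genes of the apoptosome and of mitochondrial release (8) or the inhibitors of apoptosis (5).

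Cdkn1a, which encodes the p53-induced cell cycle inhibitor p21, had the largest change of those called. It stood at 5.67, 4.22 and 4.23 CPM in NCD and 16.8, 10.3 and 15.7 CPM in HFD, groups that did not overlap. The change was 1.61 on the log2 scale or 3.06-fold (SE 0.26, edgeR adjusted p = 0.0221). Ccng1, cyclin G1 and also a p53 target, rose 1.93-fold, from 27.7, 22.8 and 25.6 CPM to 48.4, 42 and 54.4 CPM (edgeR adjusted p = 0.0305). Among the 13 genes of this sublist 9 had higher and 4 lower estimates, with a median log2 change of 0.75, and Trp53 itself was at -0.01. The sublist leaves out the p53 targets among the 9 members, Bax, Bbc3 and Fas. Their log2 changes were 0.02, -0.36 and -0.07, and none of them was called. Mdm4, which encodes an inhibitor of p53, fell from 16.3, 19.2 and 15.6 CPM to 8.13, 9.41 and 10 CPM (log2 change -0.86, edgeR adjusted p = 0.042).

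Among the upstream factors, Ddit3, which encodes the stress factor CHOP, rose 1.73-fold, from 12.1, 12.7 and 12.5 CPM to 20.9, 19.4 and 23.1 CPM (edgeR adjusted p = 0.0413). Ddit3 shares 68 exonic bases with Mars and 13 with Gm4189, and Cdkn1a 273 with AC167363.2, each on the other strand.

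The calls of Cdkn1a, Ccng1, Mdm4 and Ddit3 kept their direction but not their side of the threshold when single libraries were left out. Without HFD replicate 1 or HFD replicate 3 none of the 61 or 62 genes tested was called, with 10 and 12 of them at an unadjusted p under 0.05 and adjusted p-values of 0.1686 to 0.2173 and 0.1402 to 0.1732 for these 4 (edgeR). Without HFD replicate 2 only Cdkn1a was called (adjusted p = 0.0302). Without NCD replicate 3 these 4 lay between 0.0506 and 0.0695, and without NCD replicate 2 Mdm4 was at 0.054 (edgeR adjusted p). Without NCD replicate 1 the list had 11 calls of 60 tested and all genes 1838 of 13412, and DESeq2 made 14, beside 16.6% of all genes. With plain library totals Ccng1 (0.0503) and Ddit3 (0.0682) did not pass the threshold.

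Of 43 markers of liver cell types and of cycling cells tested in the same comparison, 3 were called, all higher in HFD, a share near the 6.03% of all genes called. Mki67, a marker of cycling cells, was at 0.996 ± 0.316 CPM in NCD and 4.51 ± 1.76 in HFD (4.32-fold, edgeR adjusted p = 0.0345). Col1a1, a collagen gene of activated stellate cells, was at 1 ± 0.327 and 5.91 ± 0.89 CPM (5.99-fold, edgeR adjusted p = 0.00927). Lyve1, a marker of endothelial cells, was at 0.775 ± 0.396 and 3.71 ± 1.18 CPM (4.61-fold, edgeR adjusted p = 0.0361; SD, n = 3 in each). The other tested markers of these 3 lists were not called, and the summed levels of all 3 lists overlapped between NCD and HFD (3.59 to 7.57 and 6.55 to 11.4 CPM for cycling cells, 65.9 to 88.6 and 75.4 to 100 for stellate, 60.8 to 77.8 and 63.2 to 80.9 for endothelial). As with the apoptosis genes, none of the 3 passed without HFD replicate 1 (edgeR adjusted p from 0.105 to 0.206) or without HFD replicate 3 (0.0762 to 0.161), while Lyve1 and Mki67 also missed it without HFD replicate 2 (0.151 and 0.0622) or NCD replicate 3 (0.0659 and 0.0601). The diet groups also differed in their reads. Each NCD library had a larger share of reads assigned to no gene (35.7% to 58.1%, against 31.9% to 32.9% in HFD) and outside any annotated feature (8.58% to 23.2%, against 4.92% to 6.84%), and fewer reads in genes (4281210 to 23147418, against 25198905 to 32124248). The part of these cells and of these read shares in the levels of Cdkn1a, Ccng1, Mdm4, Ddit3 and the 9 genes was not tested.

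**Figure D4:**
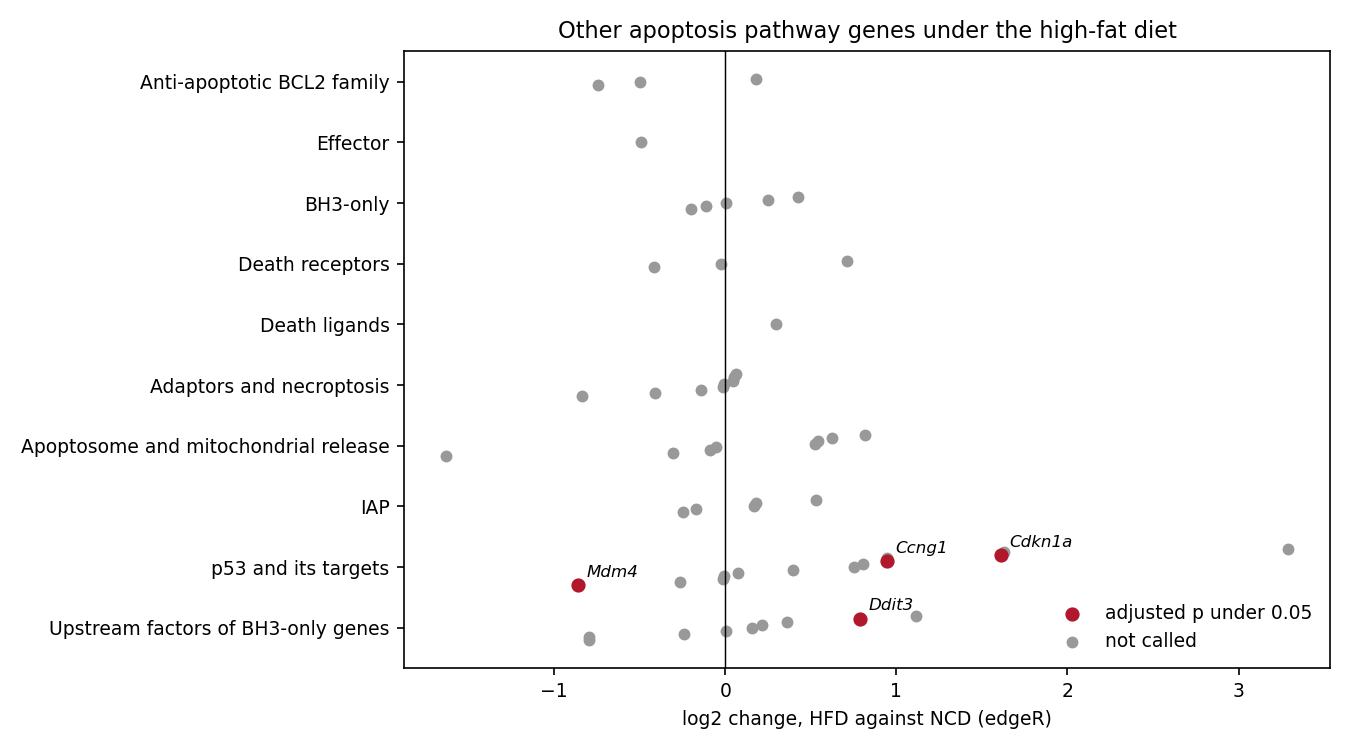
Fitted log2 change for HFD against NCD of the tested genes of the wider apoptosis list other than caspases, by sublist (edgeR, 3 libraries per group); red points passed an adjusted p under 0.05. Among the red points Cdkn1a lies farthest to the right at 1.61, and Mdm4 (-0.86) is the called gene on the left.

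With the compounds none of the 62 tested genes of the wider list was called by edgeR in any of the 3 comparisons. An unadjusted p under 0.05 was found for 6 of them with C1 against HFD (7.75% of all genes), for 6 with C2 against HFD (6.89%) and for 4 between the compounds (4.6%), counts near those shares. DESeq2 called 0, 2 and 0 of the list, beside 0.576%, 0.259% and 0.0227% of all genes. The smallest p in each direction for HFD+C1 belonged to the death receptor gene Tnfrsf10b (31, 16 and 14 reads in HFD against 4, 7 and 5, log2 change -1.58, edgeR adjusted p = 0.401) and to the survival gene Bcl2a1b (log2 change 0.92, edgeR adjusted p = 0.501). Bcl2a1b has near-identical copies and its count is uncertain. For HFD+C2 they were Cebpb, a stress-responsive transcription factor (43.1, 30.5 and 27.8 CPM in HFD against 13.7, 15.1 and 20, log2 change -1.07, edgeR adjusted p = 0.625), and the executioner caspase Casp6 (log2 change 0.38, edgeR adjusted p = 0.695). Between the compounds they were the TNF receptor Tnfrsf1a (-0.40, edgeR adjusted p = 0.841), lower with C2, and the caspase inhibitor Xiap (0.41, edgeR adjusted p = 0.841), higher with C2.

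Cdkn1a and Ccng1, the p53 targets that rose under the diet, are given with the compounds too, and they were singled out after their values were seen. Cdkn1a had 9.8, 8.54 and 10.2 CPM in HFD+C1 and 7.05, 7.43 and 6.49 CPM in HFD+C2, each library below all 3 HFD libraries. The macrophage sum (HFD+C1, 160 to 203 CPM, against 96.1 to 129 in HFD) and the markers Adgre1 and Lyve1 (HFD+C2) were higher in each library of these groups than in HFD. With C2 the other macrophage markers overlapped HFD, as did Stab2, Clec4g and Kdr of the endothelial list. Pecam1 and Cd3g were higher and Des lower in each HFD+C2 library. In each HFD+C1 library Krt19 was higher, and Lrat, Alas2 and Cdk1 were lower. None of these markers was called, and their part in the Cdkn1a level was not tested. The log2 change of Cdkn1a was -0.59 with C1 (interval -0.98 to -0.20, unadjusted p = 0.00621, edgeR adjusted p = 0.402) and -1.04 with C2 (interval -1.52 to -0.56, unadjusted p = 0.000769, edgeR adjusted p = 0.625). DESeq2 called the difference with C2 (adjusted p = 0.0211) and not that with C1 (0.1994), and without HFD replicate 2 edgeR called that with C1 (log2 change -0.78, adjusted p = 0.0199). Over all alternatives the adjusted p ranged from 0.0199 to 1 with C1 and from 0.00139 (with no filter on low counts) to 0.9982 with C2. Ccng1 overlapped its HFD level, with 45, 47.4 and 50.8 CPM in HFD+C1 and 51.4, 43.3 and 47.2 CPM in HFD+C2.

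**Figure D5:**
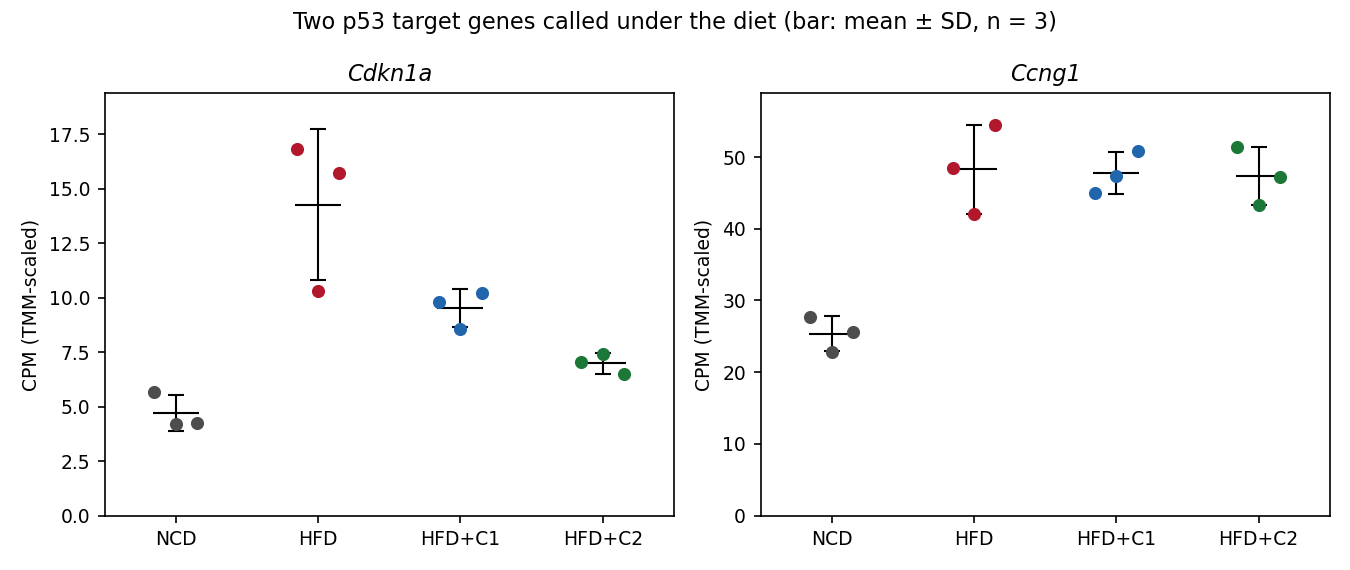
Level of Cdkn1a and Ccng1 in the 12 libraries, in CPM scaled with TMM factors on axes that start at 0; points are libraries and bars the mean and SD of a group (n = 3). Cdkn1a is highest in HFD (10.3 to 16.8) and lower in HFD+C2 (6.49 to 7.43), whereas Ccng1 overlaps between the 3 high-fat groups.

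For the other members, the genes most alike across the 12 libraries (Pearson r of log2(CPM + 1), among about 10132 genes with a mean of at least 50 reads) are given as a description. Bcl2l1 was nearest to Oaz2 (0.97), and Bax to Flad1 (0.942) and Pfdn6 (0.878). Bbc3 was nearest to Serpina1b (0.95) and Itih1 (0.907), both of which encode plasma proteins secreted by hepatocytes. Fas followed Mettl5 (0.936) and Tgds (0.917), and Bcl2 followed Tmem237 (0.907) and Epsti1 (0.882). Bak1 (Eif5b at 0.869, Septin9 at 0.867) and Bcl2l11 (Atp13a1 at 0.872, Galns at 0.85) had the loosest nearest neighbours. All of these correlations share the same 12 libraries, including the 2 that stood apart.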

How the data were processed

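The authors deposited 3 tables of read counts per gene, 1 per comparison. The authors call the tables normalized, but their values are whole numbers with totals that differ between libraries and include rows of unassigned reads, so they were treated as raw counts, on which the floors, intervals and tests rest; the HFD columns of the 3 tables were identical (0 cells differed). Per the submitters' processing notes, Trimmomatic 0.39, STAR 2.7 and DESeq2 were used with the mm10 build, the GRCm38 assembly; the annotation, strand and filters are not given in the sources used here. The 4 rows that name no gene were left out.

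Each comparison was fitted on its 6 libraries with edgeR 4.0.16 (R 4.3.3), TMM scaling and a mean of at least 10 counts, and tested with the quasi-likelihood test and Benjamini-Hochberg adjustment over all genes tested. DESeq2 1.42.0, other scalings and filters, a fit of all 12 libraries, the replicate number as a block and fits without each library were alternatives. The procedure was tested on simulated data, with 67 genes changed by 0.5 and 67 by 1 on the log2 scale. For HFD against NCD it called 0% and 11.9% of them. The shares were 22.4% and 70.1% for HFD+C1 against HFD, 4.48% and 41.8% for HFD+C2 against HFD, and 1.49% and 34.3% between the compounds. A missed threshold therefore does not show that a member was unchanged. Printed levels are CPM with TMM factors over the 12 libraries. A floor of 3 counts marks a level not detected; floors and intervals cover counting error only. Coordinates and lengths are from GENCODE M21 (GRCm38), and upstream sequences from RefSeq (GRCm38.p6). The 9 genes, the pathway list and the marker lists were chosen with earlier results of these data known. Named beside the 9 were the pathway genes called, the smallest p in each direction where none was, the 2 genes most alike each member, and cell type markers chosen after their values were seen; values of 2 genes that this rule names are not reported here.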

Additional observations from a re-analysis of the deposited data

Results flagged for a closer look

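HFD+C2 replicate 1, which had the lowest Bcl2l1, Bak1, Bcl2l11 and Bbc3 and the highest Fas of the 12 libraries, also stood out in the reads that the gene comparisons do not use. Reads overlapping more than 1 gene made up 9.04% of that library, against 3.91% to 4.96% in the HFD libraries taken as its controls and 4.74% to 7.88% in NCD. Reads outside any annotated feature made up 10.9%, against 4.92% to 6.84% in HFD. In NCD that share was 8.58%, 10.4% and 23.2%, so that the share of HFD+C2 replicate 1 was close to that of NCD replicate 3 and well below that of NCD replicate 1. The part of these reads in its levels of the apoptosis genes was not tested.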

How the results depend on the processing

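Of the values of the 9 genes under the alternatives, 106, 110, 111 and 109 kept their direction and their side of the threshold in the 4 comparisons (in the order HFD against NCD, HFD+C1 against HFD, HFD+C2 against HFD, HFD+C2 against HFD+C1), and 8, 5, 5 and 6 changed sign. None of the genes that changed sign was called. For HFD against NCD, Bax turned to -0.21 with plain library totals, -0.0472 with a mean of at least 50 counts and -0.0022 in the fit of all 12 libraries, and Fas to 0.11 without a filter. With single libraries left out, Bax ranged from -0.11 to 0.23 and Fas from -0.124 to 0.0196. For HFD+C1 against HFD the ranges were -0.298 to 0.0221 (Bax), -0.39 to 0.10 (Bcl2) and -0.14 to 0.18 (Bcl2l11), for HFD+C2 against HFD -0.17 to 0.26 (Bcl2l11) and -0.0245 to 0.173 (Casp8), and between the compounds -0.266 to 0.0934 (Bak1), -0.18 to 0.24 (Bcl2l11), -0.50 to 0.10 (Bbc3) and -0.0526 to 0.42 (Fas). Members called stayed at 0 except for 1, Casp8, for HFD against NCD without a filter. Bcl2 had too few reads for the filter at 50 counts in each comparison, and so did Bcl2l11 in each but HFD+C2 against HFD. Tnfrsf10b and Bcl2a1b were also below it for HFD+C1 against HFD, and Tnfrsf10b was below the filter at 10 counts without HFD replicate 1.

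Counts of calls moved far more. For HFD against NCD, 836 calls became 4493 without a filter, 524 with a mean of at least 50 counts (fewer genes tested), 2298 with DESeq2 and 1996 in the fit of all 12 libraries, and leaving out 1 library gave 23 (without HFD replicate 1) to 1838 (without NCD replicate 1), while 25 were called when HFD replicate 3 was left out, 131 for HFD replicate 2 and 487 for NCD replicate 3. The 5 calls of the wider list became 13 without a filter, 14 with DESeq2 and 12 in the fit of all 12 libraries, and 0 to 11 with 1 library left out. For HFD+C1 against HFD, 7 calls became 206 without a filter, 77 with DESeq2, 0 in the fit of all 12 libraries (300 at an unadjusted p under 0.05) and 2 to 102 with 1 library left out (most without HFD replicate 2). For HFD+C2 against HFD, 3 calls became 152, 35 and 0 (712 unadjusted) under the same 3 settings and 0 to 27 with 1 library left out (most without HFD+C2 replicate 1). For HFD+C2 against HFD+C1, 0 calls (608 unadjusted) became 162 without a filter, 3 with DESeq2 and 0 to 1 with 1 library left out. For the wider list the 0 calls became 3 without a filter and 0 to 1 with 1 library left out for HFD+C1, and 3 without a filter and 2 with DESeq2 for HFD+C2. The cause was not tested. With 3 libraries per group and as few as 4281210 reads, low genes such as Bcl2 were near the limit of what the depth resolves.

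The replicate numbers in the titles did not pair the libraries: same-numbered deviations from the group means correlated at -0.223 to 0.293. With the replicate number as a block, 483 genes and 2 of the wider list were called for HFD against NCD and 36 genes for HFD+C1 against HFD, and no member was called.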
